A study of Mus musculus with 6 samples.

Results

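The MHC class I presentation machinery was followed through single cells of mouse melanomas, as 10 genes of 31053 listed in the count tables: Nlrc5, Psmb8, Psmb9, Tap1, Tap2, Tapbp, Erap1, H2-K1, H2-D1 and B2m. The genes were chosen by symbol for their known roles, and all 10 were found in each of the 6 libraries and passed the filter on low counts in every comparison. The tumours came from YUMMER1.7, a mouse melanoma line, of which 600000 cells had been injected per animal. Of the 6 male C57Bl/6 mice, aged 6 to 8 weeks, 3 ran for 45 minutes daily at 12 metres per minute over 14 days (exercise replicates 5, 6 and 8) and 3 were kept sedentary (sedentary replicates 1, 2 and 3). The labels name no engineered allele, every tumour was grown from the same line, and each library is 1 dissociated tumour with no sorting, so tumour, immune and stromal cells were captured together. RNA was counted as unique molecular identifiers (UMIs), each standing for 1 captured RNA molecule, with a chemistry that reads the 3′ end.

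Class I molecules carry fragments of a cell's own proteins to its surface, where CD8 T cells read them. Proteasomes cut the proteins, the TAP pump moves the peptides into the endoplasmic reticulum, Erap1 trims them, and tapasin holds an empty class I molecule at the pump until a peptide is bound. Interferon gamma raises the transcription of much of the pathway through factors that include Irf1 and Nlrc5, and tumours that lose parts of the pathway can escape T cells.

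Most of the machinery sits in 1 stretch of the genome. On the mouse build GRCm38 with the GENCODE M21 annotation, 7 members lie on chromosome 17: Tapbp at chr17:33915899-33929292 (plus strand), H2-K1 at chr17:33996017-34000347 (minus), Psmb9 at chr17:34181987-34187764 (minus), Tap1 at chr17:34187553-34197225 (plus), Psmb8 at chr17:34197721-34201454 (plus), Tap2 at chr17:34203527-34216321 (plus) and H2-D1 at chr17:35262730-35267499 (plus). B2m lies at chr2:122147686-122153083, Nlrc5 at chr8:94434356-94527272 and Erap1 at chr13:74639568-74693201, all on the plus strand. The starts of Tap1 and Psmb9 are 211 bases apart on opposite strands, and the 2 genes overlap there. Other genes also overlap B2m, Tap2, Tapbp, Psmb8, Nlrc5 and Erap1. Those over B2m, Tap2, Psmb8 and Erap1 lie on the opposite strand, while Zbtb22 overlaps Tapbp and Mir7072 overlaps Nlrc5 on the same strand. H2-K1 and H2-D1 resemble each other and other class I genes. How the authors' counting treated reads that fit both genes of such a pair was not tested.

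Promoter sequence was available from RefSeq (GRCm38.p6) for 8 of the 10 members. Each window, from 250 bases before to 50 after a gene's start, was searched on both strands for 5 motifs that are known from class I promoters or from interferon responses. These were the interferon-stimulated response element (ISRE), here GAAA, any 2 bases and GAAA, a shorter form GAANNGAAA, the gamma-activated site TTCNNNGAA, the X2 box TGACGCG, part of the platform on which Nlrc5 acts, and the kappa B consensus. Of all 32851 RefSeq windows, 3.44% held the ISRE, 7.52% the shorter form, 8.30% the gamma-activated site, 1.91% the X2 box and 8.46% the kappa B consensus. The 200 bases before the start are shown for 4 of the 5 members with a match, the 2 heavy chains, their light chain and Psmb8, with matches in capitals:
H2-K1: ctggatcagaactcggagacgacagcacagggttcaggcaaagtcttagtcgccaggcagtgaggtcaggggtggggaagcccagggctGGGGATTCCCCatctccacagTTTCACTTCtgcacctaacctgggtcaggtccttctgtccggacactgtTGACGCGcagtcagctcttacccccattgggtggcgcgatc
H2-D1: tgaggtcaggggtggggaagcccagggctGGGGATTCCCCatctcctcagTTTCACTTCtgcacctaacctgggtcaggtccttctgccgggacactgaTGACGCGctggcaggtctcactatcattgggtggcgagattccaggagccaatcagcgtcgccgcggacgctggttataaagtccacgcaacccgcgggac
B2m: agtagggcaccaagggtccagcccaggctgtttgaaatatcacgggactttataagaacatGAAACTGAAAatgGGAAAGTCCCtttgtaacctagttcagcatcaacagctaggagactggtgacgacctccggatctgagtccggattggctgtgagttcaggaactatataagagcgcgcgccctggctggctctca
Psmb8: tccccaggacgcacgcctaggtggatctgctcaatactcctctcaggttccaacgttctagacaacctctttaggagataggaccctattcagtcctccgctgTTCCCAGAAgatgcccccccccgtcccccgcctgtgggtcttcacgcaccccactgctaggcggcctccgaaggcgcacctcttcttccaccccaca
They span chr17:34000348-34000547 (H2-K1, minus strand), chr17:35262894-35263093 (H2-D1), chr2:122147487-122147686 (B2m) and chr17:34197995-34198194 (Psmb8), the last 3 on the plus strand. The stretches of H2-D1 and Psmb8 lie inside the longer gene models of GENCODE.

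H2-K1 and H2-D1 carry the same 3 blocks in the same order: a kappa B block of 2 overlapping matches, the shorter ISRE on the opposite strand 10 bases after it, and the X2 box 49 bases from the start of that ISRE. From the first base of the kappa B block to the last of the X2 box, 73 of 77 bases are the same in both genes. B2m holds a full ISRE and a kappa B match just after it, Erap1 holds an ISRE across its start, and Psmb8 holds a gamma-activated site. No match was found in the windows of Tap1, Tapbp and Psmb9, which says only that these letters are not there.

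The 6 libraries held 58351 barcodes and between 97426009 and 131778565 UMIs each, and 52390 barcodes passed the limits on genes, UMIs and mitochondrial share. Cells were classed by marker genes, none of them a member: 25574 were tumour-like and 13880 immune-like, and 12936, with a median of 1594.5 UMIs, fell into no class. The tumour-like class rests on genes such as Cspg4, Cdh2, Nes and Cav1. The pigment cell genes that usually define melanocytes were nearly absent from it, at 0.148 to 0.408 CPM (UMIs of a gene or list per 1000000 UMIs of that class and library) for a list of 6, with 1 UMI of Sox10 and 1 of Tyrp1 in the whole class. A list of 8 immune markers summed to 22.3 to 30.7 CPM in tumour-like cells and to 10322 to 13441 CPM in immune-like cells. The list of 10 tumour markers summed to 549 to 653 CPM in tumour-like cells and to 139 to 183 CPM in immune-like cells, and the part of this carried-over RNA in the results was not tested. A list of 7 fibroblast genes summed to more than the tumour list in tumour-like cells, at 805 to 1069 CPM, and to 88.8 to 205 CPM in immune-like cells, and the part of stromal RNA was not tested either. Immune-like cells made up 42.7% of exercise 5 and 38.4% of sedentary 2, against 17.0% to 24.4% of the other libraries. Libraries shared 19 to 35 barcodes per pair. The tumour-like sums of every pair of libraries differed by more than independent draws of UMIs would give (chi-square per degree of freedom 42.9 to 145). That measure leaves out the sampling of cells.

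Every member took a smaller share of the RNA of tumour-like cells than of immune-like cells, and a larger number of UMIs per cell. Both classes were compared within the same 6 libraries, from UMIs summed per library and class. Nlrc5, the pump, the immunoproteasome subunits and tapasin stood furthest apart, and B2m, Erap1 and the heavy chains closest. As shares of UMIs, 10 of 10 members were lower in tumour-like cells, in a comparison in which 81.4% of 14188 genes passed the threshold (adjusted p of at most 0.05, edgeR), 41% lower and 40.4% higher, so a lower share by itself was common. The median log2 fold change was -1.11 over the members and -0.00 over all genes. Tumour-like cells held a median of 18871 UMIs and immune-like cells 3332. Counted per cell all 10 members were higher in tumour-like cells, as were 12063 of 14188 genes, while 1778 genes were lower. The median gene was higher by 2.39 on the log2 scale. Each member's log2 difference per cell, between 0.50 for Nlrc5 and 2.24 for H2-D1, lay below that median.

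Nlrc5, the transactivator that switches on class I genes, showed the largest difference in share of the 10. It had 10.9, 11.9 and 8.59 CPM in tumour-like cells of exercise 5, 6 and 8 and 9.99, 13.2 and 8.55 CPM in those of sedentary 1, 2 and 3. In immune-like cells it had 46.0, 43.0 and 35.1 CPM in the exercise libraries and 37.2, 48.7 and 27.4 CPM in the sedentary libraries. The lowest immune-like value was higher than any tumour-like value. The log2 fold change of tumour-like over immune-like cells was -1.89 ± 0.07 (SE; adjusted p = 3.40e-10).

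Psmb8 and Psmb9 are catalytic subunits that turn the standard proteasome into the immunoproteasome, whose cuts favour peptides that class I can hold. Psmb8 had 402, 386 and 326 CPM in tumour-like cells of the exercise libraries and 272, 418 and 315 CPM in those of the sedentary libraries, against 775 to 930 CPM in immune-like cells of the 6. Psmb9 had 133, 141 and 90.6 CPM and 83.9, 122 and 89.6 CPM in tumour-like cells of the exercise and the sedentary libraries, against 201 to 309 CPM in immune-like cells. Neither gene's classes overlapped, with log2 fold changes of -1.26 ± 0.09 (adjusted p = 1.13e-07) for Psmb8 and -1.19 ± 0.08 (adjusted p = 6.92e-08) for Psmb9.

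Tap1 and Tap2 form the peptide pump and differed to the same degree. Tap1 had 88.0, 109 and 74.8 CPM in tumour-like cells of the exercise libraries and 71.7, 107 and 69.0 CPM in those of the sedentary libraries, against 171 to 237 CPM in immune-like cells. Tap2 had 28.5, 27.4 and 18.1 CPM and 19.1, 22.4 and 18.1 CPM in tumour-like cells of the exercise and the sedentary libraries, against 45.6 to 64.9 CPM in immune-like cells. The log2 fold changes were -1.29 ± 0.06 for Tap1 (adjusted p = 3.81e-09) and -1.30 ± 0.06 for Tap2 (adjusted p = 3.42e-09), and no tumour-like value reached an immune-like one.

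Tapbp encodes tapasin, the bridge between pump and class I molecule. Its level was 119, 118 and 106 CPM in tumour-like cells of the exercise libraries and 90.9, 125 and 85.3 CPM in those of the sedentary libraries, against 180 to 254 CPM in immune-like cells, again without overlap (log2 fold change -1.03 ± 0.05, adjusted p = 3.39e-09). Erap1, the trimming peptidase, had 37.2, 34.9 and 28.6 CPM and 26.3, 32.4 and 22.8 CPM in tumour-like cells of the exercise and the sedentary libraries, against 33.7 to 47.5 CPM in immune-like cells. For Erap1 the classes overlapped between libraries, yet within each library the tumour-like cells were lower (-0.43 ± 0.06, adjusted p = 8.25e-05).

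**Figure D1:**
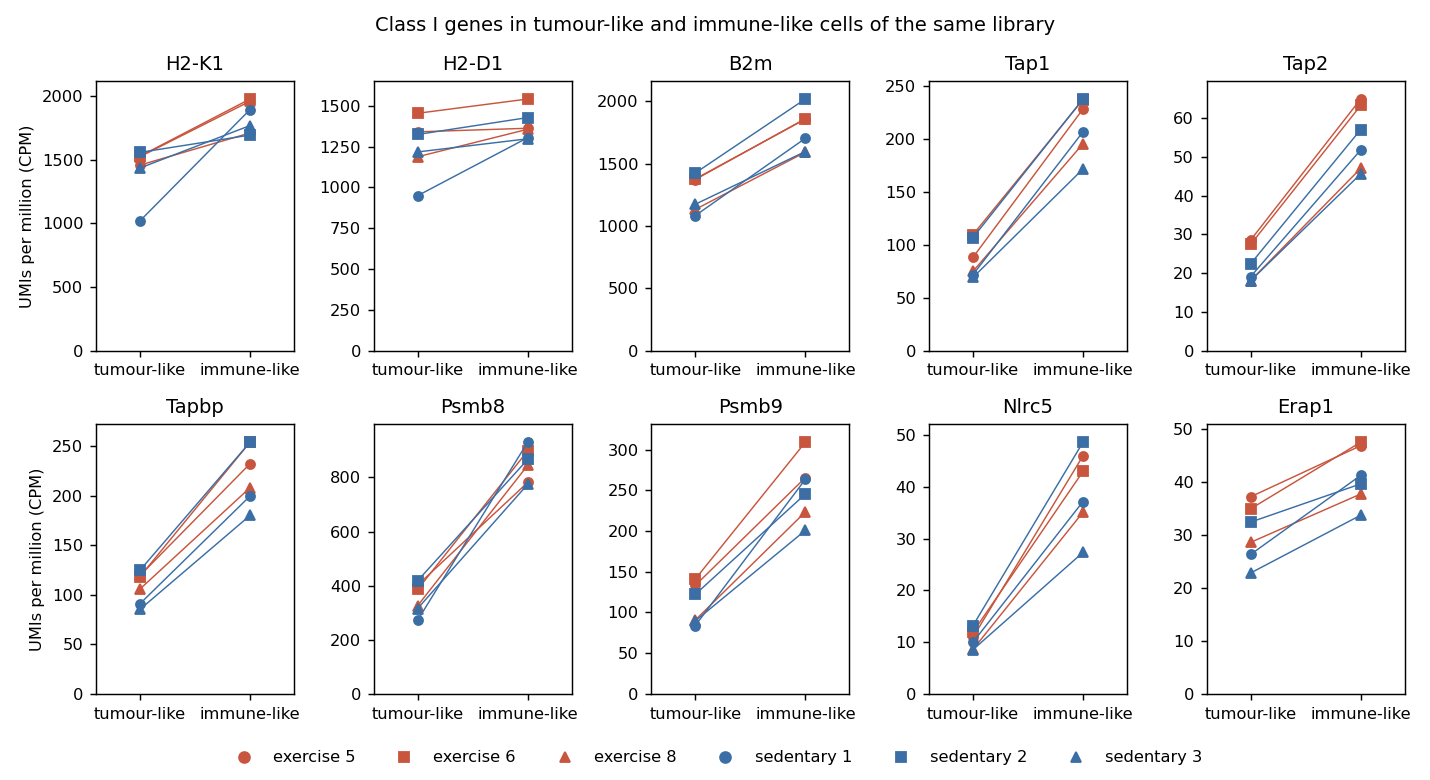
Level of each class I gene in CPM (y axes from 0) in tumour-like cells (left) and immune-like cells (right), with a line joining the classes of 1 library, exercise libraries in red and sedentary in blue. Every line rises from left to right, and the H2-K1 line of sedentary 1 starts lowest, at 1020 CPM.

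The heavy chains stood closest. H2-K1, a heavy chain, had 1458, 1528 and 1524 CPM in tumour-like cells of the exercise libraries and 1020, 1558 and 1435 CPM in those of the sedentary libraries. In immune-like cells it had 1711, 1978 and 1960 CPM in the exercise libraries and 1894, 1694 and 1769 CPM in the sedentary libraries. The tumour-like cells of sedentary 1 stood below all the other libraries, and the log2 fold change was -0.36 ± 0.08 (adjusted p = 0.00176), or -0.26 without sedentary 1.

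B2m, the light chain that every class I molecule needs, had 1372, 1376 and 1132 CPM in tumour-like cells of the exercise libraries and 1083, 1424 and 1173 CPM in those of the sedentary libraries, against 1591 to 2017 CPM in immune-like cells (log2 fold change -0.48 ± 0.05, adjusted p = 2.78e-06). H2-D1, the other heavy chain, had 1340, 1454 and 1187 CPM and 949, 1324 and 1217 CPM in tumour-like cells of the exercise and the sedentary libraries, against 1298 to 1541 CPM in immune-like cells. Its difference was the smallest of the 10, at -0.14 ± 0.06 (adjusted p = 0.0465). That call was lost without a filter on low counts, with a tumour-like gate that allowed 0 immune UMIs, without the library as a block, and without any 1 of exercise 8, sedentary 1, sedentary 2 and sedentary 3. Without sedentary 1 the log2 fold change of H2-D1 was -0.08.

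Counted per cell, the same genes read the other way. Tumour-like cells held 24.4 to 43.5 UMIs of H2-K1 per cell and immune-like cells 6.91 to 8.58. For Tap1 the range was 1.29 to 2.97 in tumour-like cells and 0.669 to 1.03 in immune-like cells. For Nlrc5 it was 0.160 to 0.368 in tumour-like cells and 0.107 to 0.211 in immune-like cells, so these ranges overlapped, although tumour-like cells were higher within each of the 6 libraries. Whether a tumour-like cell truly holds more RNA or was only captured more fully cannot be told apart in these counts.

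The neighbours of the pathway were mixed, in a comparison in which 41% of all genes were lower and 40.4% higher. The immunoproteasome subunit Psmb10 and the activator subunits Psme1 and Psme2 were lower in share in tumour-like cells (3 of 3, log2 fold changes -1.16, -1.16 and -0.75). Of the standard catalytic subunits that the immunoproteasome replaces, Psmb5 was higher (0.57 ± 0.06, adjusted p = 1.75e-06), while Psmb6 (0.05) and Psmb7 (0.14) did not pass the test. Of 5 loading chaperones, Calr (-0.45) and the tapasin relative Tapbpl (-1.15) were lower, Canx (0.42) was higher, and Pdia3 and Hspa5 did not pass. The transcription factors Irf2, Irf1, Rfxap, Rfxank and Rfx5, known from class I promoters, were lower, at -1.86 for Irf2, -1.14 for Irf1, -1.01 for Rfxap, -0.81 for Rfxank and -0.42 for Rfx5. Counted per cell, all of these genes were higher in tumour-like cells in each library, on a scale on which 12063 of 14188 genes passed as higher.

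Among finer classes the order of the levels depended on the gene. For H2-K1 the pooled levels ran from T-like cells (2317 CPM) through NK-like (2272), plasmacytoid dendritic-like (2140), macrophage-like (1677), tumour-like (1415) and dendritic-like cells (1347) to neutrophil-like cells (957). T-like and NK-like cells traded places between libraries (T-like higher in 3 of 6), as did tumour-like and dendritic-like cells (tumour-like higher in 3 of 5 libraries with enough dendritic-like cells). The class ranges show the spread: 2080 to 2579 CPM over the 6 T-like sums and 1020 to 1558 CPM over the 6 tumour-like sums. These classes differ in size, from 6305 macrophage-like and 3002 T-like cells down to 138 dendritic-like and 104 plasmacytoid dendritic-like cells, so the last 2 rest on few cells.

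Dendritic-like cells, specialists in presenting to T cells, led for the pump and the immunoproteasome subunits. Tap1 stood at 347 CPM pooled over dendritic-like cells, against 225 CPM in macrophage-like, 202 CPM in T-like and 85.9 CPM in tumour-like cells. Psmb8 stood at 1533 CPM in dendritic-like cells, 992 CPM in T-like cells and 348 CPM in tumour-like cells, and Psmb9 at 648, 285 and 109 CPM in those classes. Dendritic-like cells were above the next class in 5 of 5 libraries for Tap1, Psmb8 and Psmb9, and in 4 of 5 for Tap2. They did not lead for the loading and trimming members: Tapbp was highest in plasmacytoid dendritic-like cells (302 CPM pooled, against 226 CPM in dendritic-like cells) and Erap1 in T-like cells (50.3 CPM, against 30.2 CPM in dendritic-like cells).

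The order was taken over 7 classes, and the gated mast-like (97) and B-like cells (35) were left out. Mast-like cells had 0 to 143 CPM of Psmb9 and 140 to 572 CPM of Psmb8 over the 6 libraries. A last place therefore holds only among the 7 classes. Of these, tumour-like cells were last for B2m, Tap1, Tap2, Tapbp, Psmb9 and Nlrc5. They did not differ from the next class in a steady way for B2m (dendritic-like cells higher in 3 of 5 libraries) or Psmb9 (neutrophil-like cells higher in 2 of 6), but for Tap1 the NK-like cells and for Tapbp the T-like cells were higher in 6 of 6 libraries. Neutrophil-like cells were last of the 7 for H2-K1, Psmb8 and Erap1 when pooled. For Psmb8 they were still higher than tumour-like cells in 4 of 6 libraries, and for Erap1 in 2. Nlrc5 was highest in T-like cells, at 56.6 CPM pooled, with 43.0 to 67.8 CPM over the 6 libraries.

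**Figure D2:**
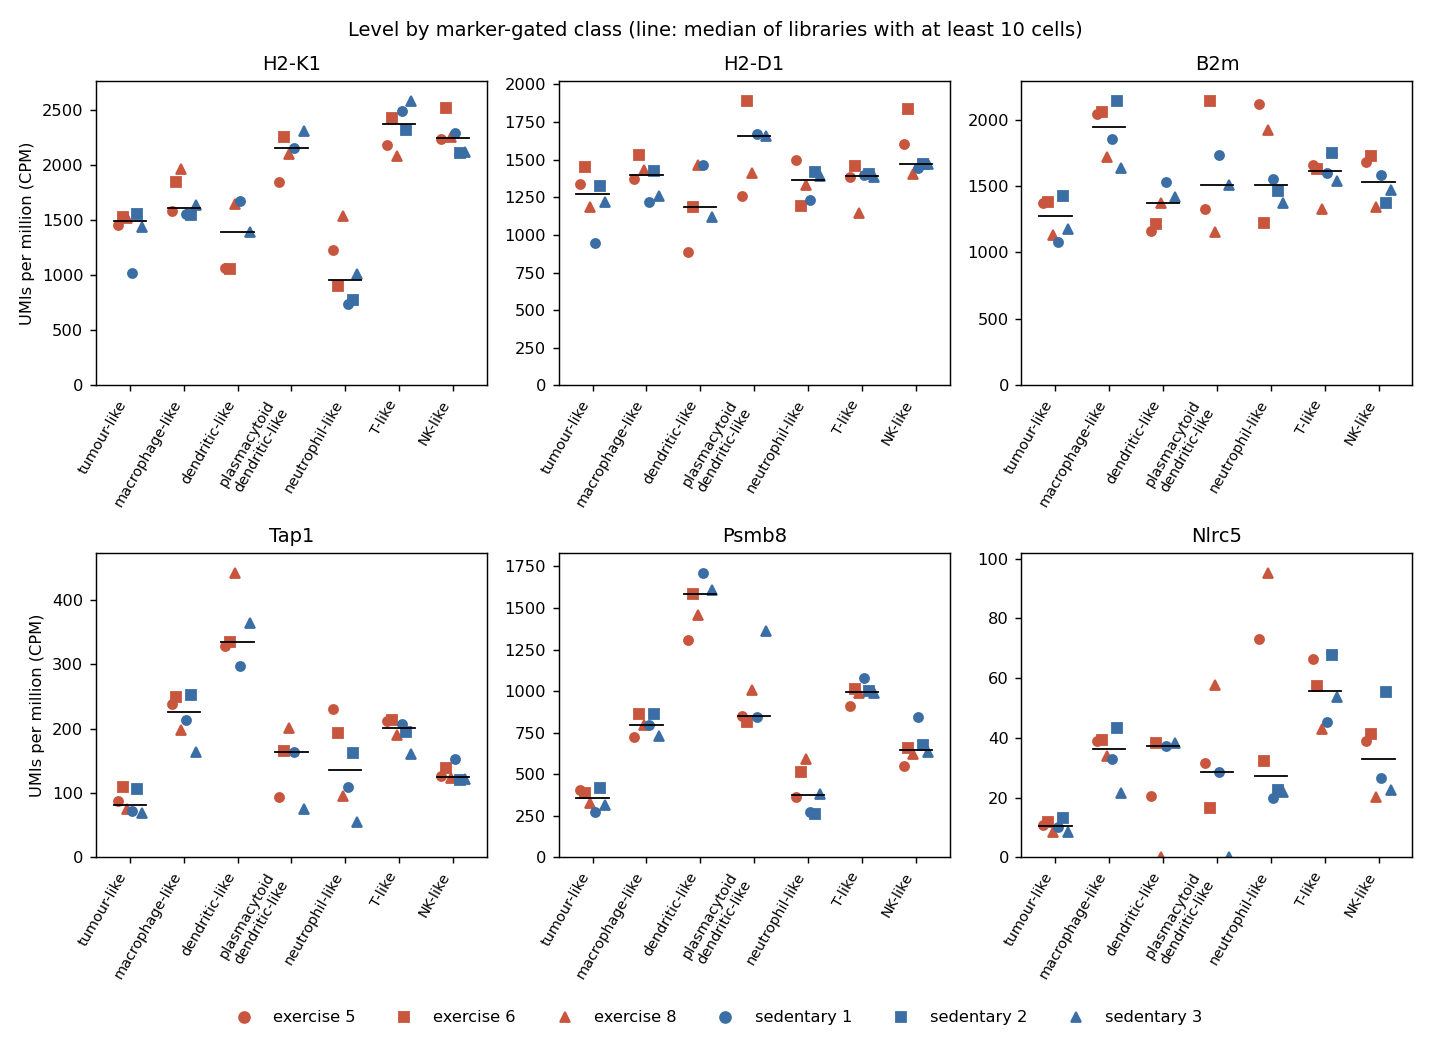
Level of 6 class I genes in CPM (y axes from 0) in 7 marker-gated classes, with exercise libraries in red and sedentary in blue. Each point is 1 library with at least 10 cells of the class, and the median is a black line. Mast-like and B-like cells are not drawn. H2-K1 is highest in T-like and NK-like cells, and Tap1 and Psmb8 in dendritic-like cells. Nlrc5 stays between 8.55 and 13.2 CPM in tumour-like cells.

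Within the tumour-like class, the members followed the cells' interferon response. Each tumour-like cell was thinned to 5000 UMIs, and its UMIs of 16 interferon-induced genes, none of them a member, were counted. Cells with at least 8 such UMIs are called marked (8945 cells) and those with at most 1 unmarked (6959 cells), while 9023 lay between and 647 had too few UMIs. These limits cut a continuous range, and 1722 cells lay at 7 or 8 UMIs. Marked cells made up 32.02%, 46.7% and 31.7% of the thinned tumour-like cells in exercise 5, 6 and 8, and 33.9%, 49.5% and 26.5% in sedentary 1, 2 and 3.

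All 10 members were higher in marked than in unmarked cells of the same library, and higher in each of the 6 libraries. Among 12499 genes tested, 46.6% passed the threshold, 23.2% higher and 23.4% lower (2901 genes higher and 2927 lower, or 3836 higher and 2012 lower when scaled by library size alone). The median log2 fold change was 1.63 over the members and 0.00 over all genes. Counted per cell the median gene was lower by 0.19 in marked cells, which held a median of 18008 UMIs against 21772 in unmarked cells, and the members were still higher, by 0.33 to 1.74.

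Nlrc5 had 17.3, 18.0 and 14.9 CPM in marked cells of exercise 5, 6 and 8 and 18.0, 20.2 and 15.99 CPM in marked cells of sedentary 1, 2 and 3. In unmarked cells it had 5.27, 5.91 and 3.998 CPM in the exercise libraries and 4.29, 5.11 and 4.16 CPM in the sedentary libraries. The 2 sets did not overlap, and the log2 fold change of marked over unmarked cells was 1.81 ± 0.07 (adjusted p = 5.40e-09).

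Tap1 had 144, 154 and 126 CPM in marked cells of the exercise libraries and 127, 171 and 125 CPM in those of the sedentary libraries. In unmarked cells it had 45.8, 52.6 and 35.2 CPM and 30.2, 33.4 and 38.3 CPM in the exercise and the sedentary libraries. Every marked value was above every unmarked one (1.80 ± 0.09, adjusted p = 3.91e-08). Tap2 rose by 1.93 ± 0.11, with 31.7 to 45.0 CPM in marked and 5.53 to 15.3 CPM in unmarked cells, and Tapbp by 1.70 ± 0.07, with 149 to 194 CPM in marked and 41.6 to 63.5 CPM in unmarked cells.

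The immunoproteasome subunits were higher in marked cells as well. Psmb8 had 593, 519 and 511 CPM in marked cells of the exercise libraries and 444, 657 and 540 CPM in those of the sedentary libraries, against 126 to 226 CPM in unmarked cells (1.66 ± 0.09, adjusted p = 1.07e-07). Psmb9 had 133 to 193 CPM in marked and 36.2 to 82.5 CPM in unmarked cells (1.59 ± 0.11), and Erap1 35.4 to 51.7 CPM in marked and 13.8 to 23.1 CPM in unmarked cells (1.28 ± 0.07). None of these 3 genes overlapped between the sets.

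The displayed chains moved less. H2-K1 had 1833, 1825 and 1992 CPM in marked cells of the exercise libraries and 1386, 2132 and 1929 CPM in those of the sedentary libraries. In unmarked cells it had 1100.5, 1044 and 987 CPM and 647, 806 and 1023 CPM in the exercise and the sedentary libraries. Sedentary 1 was lowest in both sets, and the sets did not overlap (0.93 ± 0.07, adjusted p = 1.07e-06). H2-D1 rose by 0.72 ± 0.05, with 1231 to 1721 CPM in marked and 654 to 1077 CPM in unmarked cells. B2m rose by 0.53 ± 0.04, with 1350 to 1723 CPM in marked and 805 to 1222 CPM in unmarked cells.

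Over 6 steps of the interferon list, from 0 to at least 16 UMIs per thinned cell, the rise was gradual. The median over libraries of mean H2-K1 UMIs per thinned cell was 4.68, 6.05, 6.74, 8.20, 9.33 and 10.5 from the lowest to the highest step. H2-K1, H2-D1, B2m, Tap1, Tapbp, Psmb8 and Psmb9 rose at every step in 6 of 6 libraries, Tap2 and Erap1 in 4 and Nlrc5, with far fewer UMIs, in 1. Between the ends, the median ratio was 1.69 for B2m, 1.94 for H2-D1, 2.30 for H2-K1, 3.30 for Erap1, 3.76 for Psmb9, 4.30 for Tapbp, 4.32 for Psmb8, 5.31 for Tap1, 5.42 for Tap2 and 5.49 for Nlrc5. Nlrc5 went up only to a median of 0.105 UMIs per thinned cell at the top step, and its steps rest on few molecules.

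**Figure D3:**
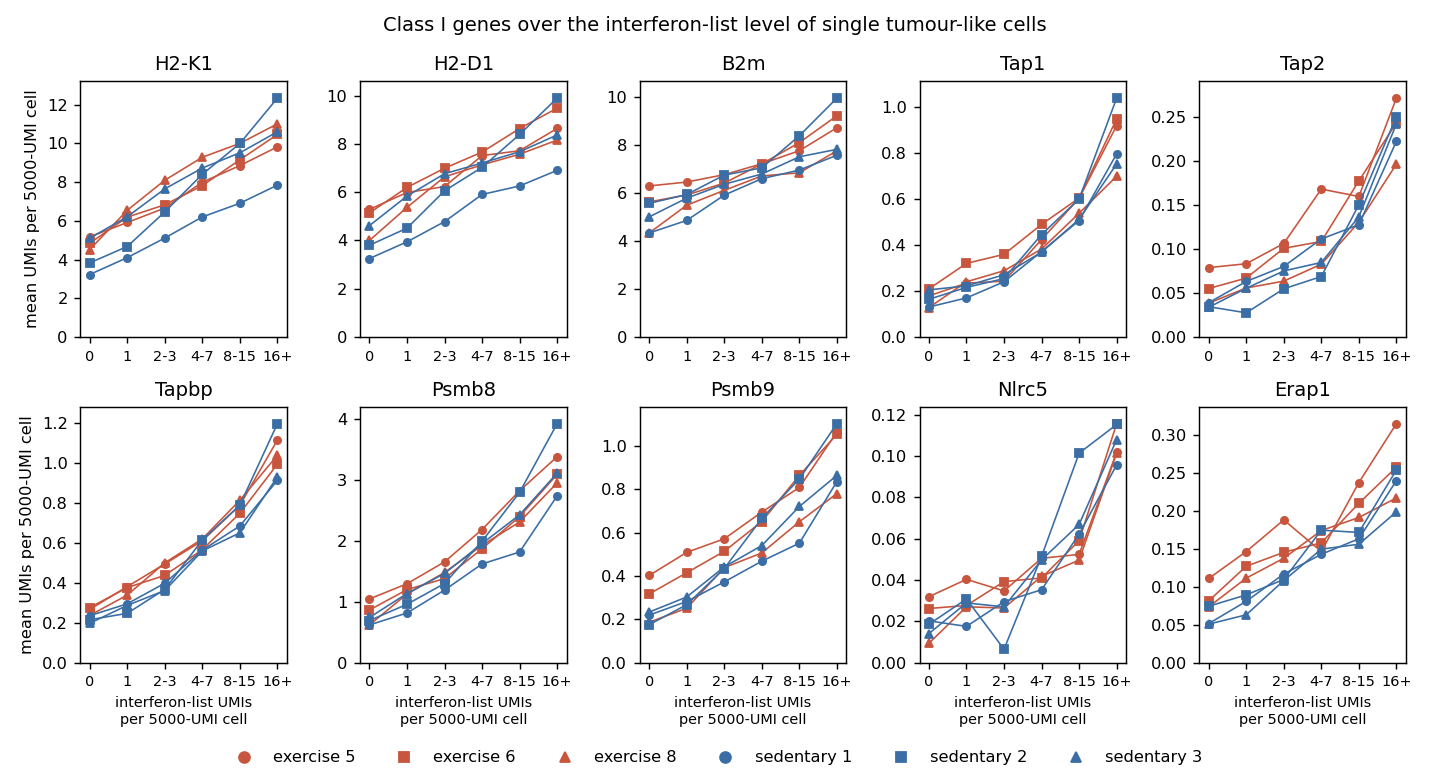
Mean UMIs of each class I gene per tumour-like cell thinned to 5000 UMIs (y axes from 0) over 6 steps of the cell's interferon-list UMIs (x axis), 1 line per library, exercise in red and sedentary in blue. H2-K1 climbs from a median of 4.68 to 10.5 UMIs, and the line of sedentary 1 runs lowest at each step.

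Genes beside the members split by proteasome type in this contrast, in which 23.2% of all genes were higher and 23.4% lower. Psmb10 (1.97 ± 0.08), Psme1 (1.03) and Psme2 (1.02) were higher in marked cells, 3 of 3, while the standard subunits Psmb5 (-0.25), Psmb6 (-0.16) and Psmb7 (-0.19) were lower, 3 of 3. Tapbpl rose by 2.24 ± 0.09 (adjusted p = 7.65e-09), Hspa5 was lower (-0.19), and the chaperones Calr, Canx and Pdia3 did not pass the test. Among the transcription factors outside the marking list, Irf2 (0.82) and Rfx5 (0.77) were higher, Rfxap (-0.23) was lower and Rfxank (0.14) did not pass. Irf1 was part of the marking list, so its higher level is not a result. The receptor gene Ifngr1 (0.72) and the kinase genes Jak1 (0.19) and Jak2 (0.58) were higher, and Ifngr2 (-0.12) did not pass.

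**Figure D4:**
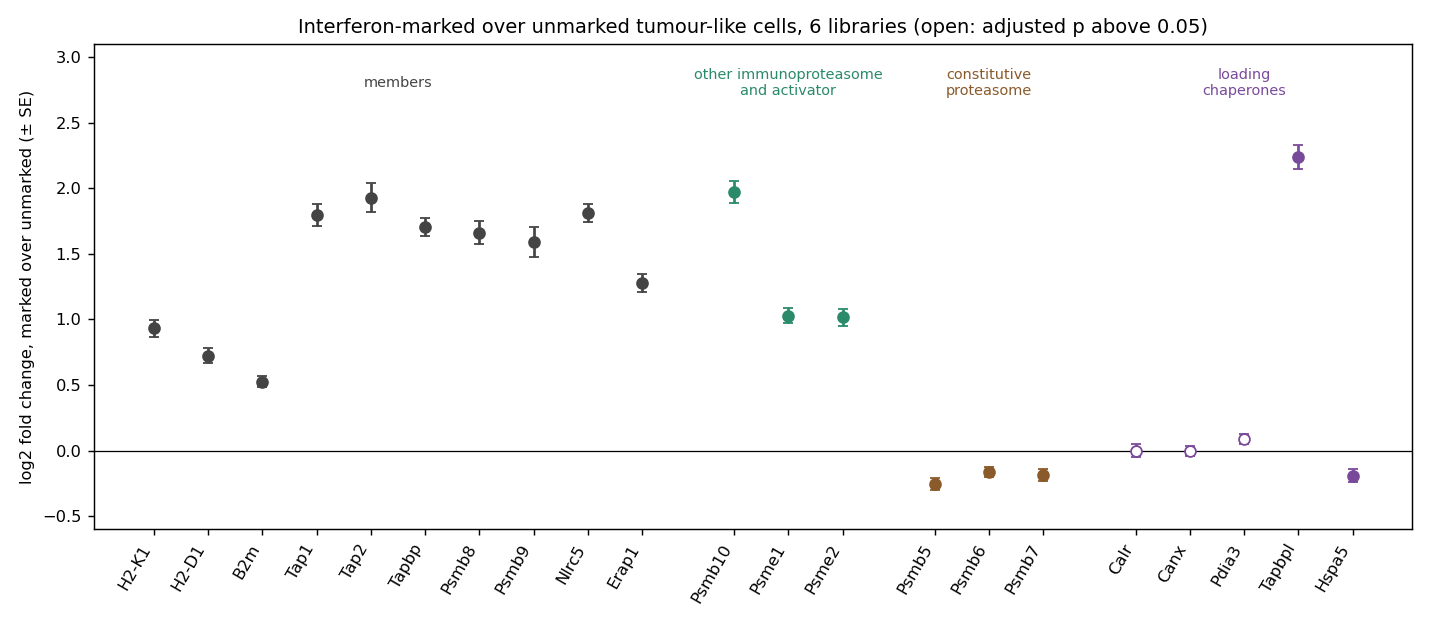
Log2 fold change of marked over unmarked tumour-like cells (y axis, bars ± SE from edgeR, 6 libraries) for the 10 members and 3 fixed lists, with open circles where the adjusted p was above 0.05. Members lie between 0.53 and 1.93, and Psmb5, Psmb6 and Psmb7 between -0.25 and -0.16.

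Markers of other cell types were set beside this contrast. The list of 8 immune markers summed to 20.3 to 26.3 CPM in marked cells and to 23.9 to 36.2 CPM in unmarked cells, and the macrophage gene C1qa stood at 2.14 to 5.18 CPM in marked and 1.598 to 4.12 CPM in unmarked cells. The gene Ifng itself did not reach the count filter in these cells. The list of 7 fibroblast genes differed more, at 1045 to 1328 CPM in marked and 448 to 803 CPM in unmarked cells, without overlap. All 7 of its genes were detected in both sets. Col1a1 held only a small part of these sums, at 9.25 to 20.8 CPM in marked and 1.01 to 8.39 CPM in unmarked cells. The levels of the other genes of the list are not given here. The list of 7 NK genes differed the other way, at 82.4 to 146 CPM in marked and 154 to 199 CPM in unmarked cells, also without overlap. In all tumour-like cells this NK list summed to more than the immune list, at 122 to 167 against 22.3 to 30.7 CPM. In NK-like cells it summed to less, at 2600 to 3318 against 10497 to 13430 CPM. A B cell list near 0 had 0.457 to 1.26 CPM in marked and 0.149 to 0.416 CPM in unmarked cells. The part of these lists in the members' result was not tested. With a tumour-like gate that allowed 0 immune UMIs, all 10 members were still higher in marked cells, H2-K1 by 0.83 and Tap1 by 1.73.

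Set beside immune-like cells of the same library, marked tumour-like cells reached them in most libraries for the heavy chains and Erap1 and in none for the other 7 members. The ratio of CPM in marked to immune-like cells had a median of 1.04 for H2-K1 (0.732 in sedentary 1 to 1.26 in sedentary 2), 1.13 for H2-D1 and 1.06 for Erap1, with 4, 5 and 4 of 6 libraries above 1. It was 0.855 for B2m, 0.769 for Tapbp, 0.676 for Psmb9, 0.673 for Tap2, 0.651 for Psmb8, 0.649 for Tap1 and 0.421 for Nlrc5, below 1 in 6 of 6 libraries for each of these 7. The ratios set tumour-like cells chosen for at least 8 interferon-list UMIs against immune-like cells that were not chosen in this way. They are a description and were not tested.

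The last comparison asked whether running changed the machinery. No member passed the test between exercise and sedentary tumour-like cells, where 0% of 14253 genes did at an adjusted p of at most 0.05 (at an unadjusted p under 0.05, 241 genes were higher and 385 lower, and DESeq2 called 33 genes, none of them a member). For all 10 members the 3 exercise and the 3 sedentary values overlapped, while of 14194 genes with at least 10 UMIs in at least 3 libraries 3.98% had every exercise value above every sedentary one and 4.9% every one below. H2-K1 averaged 1503 ± 39.2 CPM in exercise and 1338 ± 282 CPM in sedentary tumour-like cells (SD, n = 3 each). The wide sedentary spread came from sedentary 1, at 1020 CPM, and the log2 fold change was 0.17 ± 0.16, or -0.01 without that library.

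Erap1 averaged 33.5 ± 4.45 CPM in exercise and 27.2 ± 4.85 CPM in sedentary cells (log2 fold change 0.31 ± 0.15), and Psmb9 121.6 ± 27.1 and 98.5 ± 20.7 CPM (0.31 ± 0.20). Tap2 averaged 24.6 ± 5.73 CPM in exercise and 19.8 ± 2.26 CPM in sedentary cells (0.32 ± 0.17). These 3 had the largest estimates, each with an adjusted p of 0.997. The other estimates were 0.20 ± 0.14 for Tapbp, 0.19 ± 0.15 for H2-D1, 0.15 ± 0.17 for Psmb8, 0.15 ± 0.20 for Tap1, 0.08 ± 0.13 for B2m and -0.00 ± 0.18 for Nlrc5. The median over the members was 0.18, against 0.01 over all genes. In unmarked tumour-like cells alone, 2 of 10 members had every exercise value above every sedentary one, as 3.79% of 12484 genes did (3.62% had every one below). Tapbp had 49.1 to 63.5 CPM in exercise and 41.6 to 43.6 CPM in sedentary libraries, and Erap1 had 16.1 to 23.1 CPM in exercise and 13.8 to 15.8 CPM in sedentary libraries. In marked cells none of the 10 was separated (3.7% of 12786 genes were above and 4.96% below), and no test was run within either set.

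The interferon lists of the libraries were set beside these levels. Tap1 was highest in exercise 6 (109 CPM) and sedentary 2 (107 CPM), which also had the highest summed interferon list in tumour-like cells, at 2042 CPM in exercise 6 and 2385 CPM in sedentary 2. In the other libraries the list summed to 1567 CPM in exercise 5, 1421 CPM in exercise 8, 1521 CPM in sedentary 1 and 1221 CPM in sedentary 3. Exercise 6 and sedentary 2 were also the highest for H2-K1, B2m and Nlrc5, but not for the remaining members. Exercise 5 was highest for Tap2 (28.5 CPM) and Erap1 (37.2 CPM). It was second for Tapbp, Psmb8, Psmb9 and H2-D1. None of the 16 genes of the list passed the test between the groups, with 8 estimated higher and 8 lower in exercise. The part of the interferon response in the members' values was not tested.

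**Figure D5:**
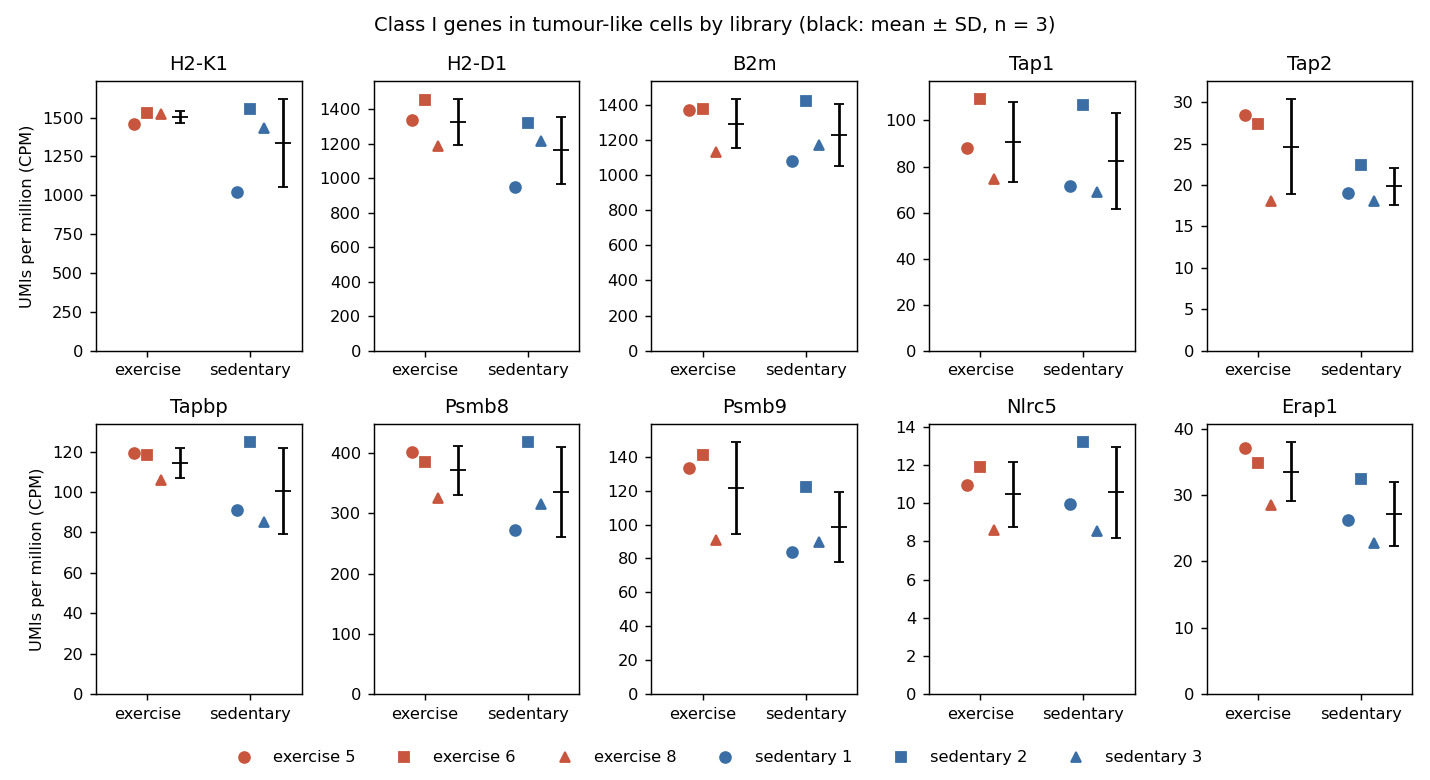
Level of each class I gene in tumour-like cells in CPM (y axes from 0), 1 point per library, exercise (red, left) and sedentary (blue, right), with the mean ± SD of 3 libraries in black. The points of both groups overlap for all 10 genes, and sedentary 1 is lowest for H2-K1 at 1020 CPM.

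No member passed in the immune compartment either. In immune-like cells 0% of 12154 genes passed and in macrophage-like cells 0% of 10815, and DESeq2 called 5 and 2 genes. At an unadjusted p under 0.05, 127 genes were higher and 197 lower in immune-like cells, and 150 higher and 146 lower in macrophage-like cells. In T-like cells 0.0108% of 9301 genes passed, a single gene that is no member. H2-K1 lay between 1694 and 1978 CPM over the 6 immune-like sums, and its log2 fold change was 0.03 ± 0.10 in immune-like, 0.15 ± 0.12 in macrophage-like and -0.18 ± 0.09 in T-like cells. Erap1 in T-like cells had 47.3 to 62.2 CPM in exercise and 43.5 to 44.9 CPM in sedentary libraries without overlap, as 5.96% of 9497 genes did in that direction and 3.18% in the other. Its log2 fold change of 0.30 ± 0.16 there did not pass (adjusted p = 0.9996, edgeR). Tap2, Psmb9 and Nlrc5 in neutrophil-like cells and Erap1 in dendritic-like cells were also separated with exercise higher, from few UMIs. Neutrophil-like cells of exercise 6 held 3 UMIs of Tap2, 3 of Psmb9 and 1 of Nlrc5. Dendritic-like cells of sedentary 2 were 3 cells with 0 UMIs of Erap1. In those classes no test was run and the share of all genes was not counted, so these separations are not read as a result. Over whole libraries, where fewer cells of a type and less RNA per cell cannot be told apart, 0% of 15509 genes passed, and the members' estimates lay between 0.07 for Nlrc5 and 0.32 for Tap2. The exercise effect in tumour-like cells minus that in immune-like cells was tested as well: 0% of 15073 genes passed, and the members' differences lay between -0.11 for Nlrc5 and 0.24 ± 0.16 for Psmb8.

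Cells without any H2-K1 UMI were counted next. After thinning to 5000 UMIs, 2.92%, 1.83% and 3.99% of tumour-like cells of exercise 5, 6 and 8 had none, and 8.09%, 4.21% and 2.77% of those of sedentary 1, 2 and 3. Sedentary 1 stood highest, and exercise 8 lay above sedentary 3. The means were 2.91% ± 1.08 in exercise and 5.03% ± 2.75 in sedentary libraries (SD, n = 3 each, two-sided exact permutation p = 0.3, where 0.1 is the smallest this design allows). Without sedentary 1 the sedentary mean was 3.49%, and the difference of exercise minus sedentary was -0.58 percentage points in place of -2.11. Without thinning the shares were 0.720% to 1.62% in exercise and 1.12% to 2.17% in sedentary libraries. H2-K1 is made by nearly all nucleated cells, so no class could serve as a blank for free RNA.

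Sedentary 1 also had the most thinned tumour-like cells without H2-D1, at 5.51% against 1.02% to 3.37% in the 3 exercise libraries and 2.07% to 3.22% in sedentary 2 and 3, and without B2m, at 2.58% against 0.697% to 2.27% in the exercise libraries. The same held for Psmb8, at 34.9% against 22.1% to 30.03% in the 5 other libraries, and for Psmb9, at 66.3% against 51.8% to 65.1%. For Tap1, Tap2, Tapbp, Erap1 and Nlrc5 its share lay within the range of the others, as for Tap1 at 71.2% against 60.2% to 72.2%. At the cells' middle, sedentary 1 had a median of 5 H2-K1 UMIs per thinned cell, against 7 or 8 in the other libraries.

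Across 28 sums of a class in a library with at least 50 cells, the genes whose level followed H2-K1 most closely were Atp5e (Pearson r 0.931 of log2 CPM + 1), Ndufa4, Rplp2, Rpl27 and Dnajc1, out of 8290 genes. For Tap1 they were Havcr2 (0.883), Adap1, Adgrg5, Rap1a and Il21r. Among the members, Tap1 ran closest to Tapbp (0.834), Psmb9 (0.829) and B2m (0.824), and H2-K1 to Psmb8 (0.821). The sums share libraries and differ in depth by class, so these values describe the classes and carry no test.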

How the data were processed

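The authors deposited 1 matrix per library of raw counts (UMIs of each gene in each barcode). Cell Ranger 6.1.2 and the build mm10 are named in the submitters' processing notes, while the matrices' file headers name software version 3.1.0; which made the counts is not given in the sources used here. A barcode was kept if it had 300 genes or more, 500 UMIs or more and a mitochondrial share no higher than 20%. Tumour-like cells needed at least 2 of 10 tumour markers and at most 2 of 8 immune markers, and immune-like cells at least 4 immune and at most 2 tumour markers. Both could hold at most 3 markers of each of the fibroblast, endothelial and pericyte lists and 2 red cell markers, and tumour-like cells at most 2 of each immune lineage. Genes with at least 10 UMIs in at least 3 libraries were counted for overlap of groups. No doublet caller was run, and free RNA was not corrected, since the matrices hold called cells. UMIs were summed per class and library and tested with edgeR 4.0.16 (R 4.3.3; filterByExpr, TMM, quasi-likelihood, Benjamini-Hochberg adjustment over all genes); DESeq2 1.42.0 was an alternative. Classes of 1 tumour were compared with the library as a block: their deviations from the class means correlated at 0.327 to 0.443 (tumour-like and immune-like, 8266 genes) and 0.496 to 0.819 (marked and unmarked, 7531 genes). The test was also run on simulated counts, with an outcome that is not given here. Those counts held no library differences beyond depth, so they cannot judge the use of the library as a block. The members, lists, gates and tests were chosen with earlier results of these data known. All 10 members are named in each comparison, listed genes by count and threshold. The labels describe 1 tumour per library, with nothing said of separate runs. P-values of exercise against sedentary therefore measure the spread between these 6 libraries. Those of comparisons with the library as a block measure the spread of the class differences within libraries. One gene of the transcription factor list is not reported here.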

Additional observations from a re-analysis of the deposited data

Results flagged for a closer look

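Among 20 sets of 6 library values, the log2 ratio of each member in tumour-like over immune-like cells and in marked over unmarked cells, 4 had a library whose gap to its nearest neighbour was more than 0.625 of the whole range (Dixon's 95% limit, which chance passes in about 1 of 20 sets). For H2-K1, tumour-like over immune-like cells, sedentary 1 stood at -0.89, with a gap of 0.675 of the range. For B2m it stood at -0.65, with a gap of 0.678. For Tap2, marked over unmarked cells, sedentary 2 stood at 2.79, with a gap of 0.646, and for Erap1 at 1.78, with a gap of 0.667.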

How the results depend on the processing

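Tumour-like against immune-like cells depended on the scale. On UMIs per cell, 12063 of 14188 genes passed as higher in tumour-like cells and 1778 as lower. Counted as UMIs per cell, a scale added after seeing the data, 10 members were higher and 0 lower, with log2 values of 2.02 for H2-K1, 2.24 for H2-D1, 1.91 for B2m, 1.09 for Tap1, 1.09 for Tap2, 1.36 for Tapbp, 1.12 for Psmb8, 1.195 for Psmb9, 0.50 for Nlrc5 and 1.96 for Erap1. On shares, the direction of the 10 members held under every other alternative, and all calls but that of H2-D1. H2-D1 was -0.05 without a filter, -0.11 with 0 immune UMIs allowed, -0.13 with no replicate block and -0.16 to -0.08 with 1 library left out. Marked against unmarked cells kept 10 members higher throughout, and with no replicate block 3019 genes passed in place of 5828; the block changed no other member's call.

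Between exercise and sedentary cells no member passed under any alternative run. In tumour-like cells DESeq2 called 33 genes, the unfiltered test 2 and the tests with 1 library left out 0 to 1. With 1 library left out, estimates ranged from -0.0063 to 0.29 for H2-K1, -0.019 to 0.20 for B2m, -0.015 to 0.37 for Tap1 and -0.13 to 0.18 for Nlrc5, so their signs are not settled. In immune-like cells DESeq2 called 5 genes, in macrophage-like cells 2 (unfiltered 1), and over whole libraries 22. In T-like cells 50 genes passed unfiltered, 0 with a mitochondrial limit of 10% and 0 to 1 with 1 library left out. For the difference of effects DESeq2 called 5, the unfiltered test 2 and leaving out 1 library 0 to 2. The causes were not tested. A gate with 0 UMIs of every other class left too few cells and was replaced by 0 immune UMIs, chosen after seeing the data. With 3 animals a group, the SE of a member's exercise effect in tumour-like cells was 0.13 to 0.20 on the log2 scale, which limits what could be seen.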
